A study of Mus musculus with 4 samples.

Results

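Cells with transcripts of nonclassical monocytes and few transcripts of S100a8 and S100a9 were described in leukocytes of transplanted mouse left lungs. Members were chosen by their measured UMI counts (UMIs are molecules counted by a unique barcode): at least 3 UMIs of Ace, Adgre4 and Cd300e together, fewer than 10 of S100a8 and S100a9 together, fewer than 5 of C1qa, C1qb and C1qc together, and 0 of Cd3e, Cd79a and Ncr1. This rule found 1330 of 24291 cells (5.48%) that passed the quality limits (200 or more genes, and mitochondrial UMIs of no more than 10%). The levels of those 11 genes, and the classes cut from them, are therefore descriptions of the rule and not findings.

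The 4 groups of B6 mouse lung were each 1 library made from the pooled left lungs of 2 mice: donor cells with vehicle, donor cells with RvD1, recipient cells with vehicle and recipient cells with RvD1. Series of 4 values follow that order throughout. Donor cells came with the graft and recipient cells entered it from the host; both were sorted on CD45, the pan-leukocyte marker, per the labels. In all 4 groups the graft was kept for 60 min at 4 °C and 45 min at 28 °C, was transplanted into a mouse of the same strain and was collected 2 h after reperfusion. RvD1 is resolvin D1, a lipid mediator made from docosahexaenoic acid, and each dose was 200 ng in 200 µL of 1% ethanol, injected into a vein before the transplantation; the vehicle was given in the same way. The protocol in the labels names the recipient mouse as the one treated, whereas the design text names the graft. It is not stated there whether donor and recipient cells under 1 treatment were sorted out of the same grafts. With 1 library per group there was no replicate check, no test between conditions was run, and a ratio compares the libraries named.

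Nonclassical monocytes are blood monocytes that crawl along the inner face of small vessels, the lung capillaries included, and take up debris there. They arise from classical monocytes, which carry Ly6C and the chemokine receptor Ccr2, and depend on the nuclear receptor Nr4a1 and on signalling through Csf1r. Ace encodes angiotensin-converting enzyme, which capillary endothelium also makes in large amounts. Adgre4 encodes an adhesion G protein-coupled receptor, Cd300e an activating receptor, Apoc2 an apolipoprotein that activates lipoprotein lipase, and Pparg a nuclear receptor for fatty acid ligands.

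Members had a median of 12987, 13288, 9610.5 and 9254.5 UMIs per cell and 3270, 3226, 2867 and 2763.5 genes. The recipient members were therefore shallower than the donor members, and summed levels are given as CPM, the UMIs of a gene scaled to a common total of UMIs of the class. Scrublet marked 12 of the 1330 members as doublets. Between 4 and 15 cell barcodes were shared by each pair of libraries, and 0 of them were members in both. The counting software differed with treatment (Cell Ranger 7.0.1 for RvD1 and 6.1.1 for vehicle in either origin), and the 2 cannot be told apart. Ribosomal protein genes took 12.8%, 16.5%, 14.3% and 14.0% of the members' UMIs.

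The label was checked against markers that the rule did not use. Ptprc, which encodes CD45, was found at 1732, 1529, 1449 and 1648 CPM in 1229 of the members, and 1 of them had no Ptprc UMI. Of these 1229, 37 had no Csf1r UMI. A further check found 52 of the 1229 with no UMI of Adgre4 or Cd300e, so that these met the rule through Ace alone. Another 93 members carried at least 10 UMIs of 8 endothelial genes (Cdh5, Cldn5, Kdr, Egfl7, Tmem100, Epas1, Ramp2 and Calcrl). Of these 93, 85 had no Ptprc UMI, 87 had no Csf1r UMI and 92 had no UMI of Adgre4 or Cd300e, so that 92 of them met the rule through Ace alone. Their Ace level was 546, 426, 454 and 469 CPM, against 405, 387, 482 and 577 CPM in the 1229 other cells. Their Cldn5 level, a tight junction gene of endothelium that helped to choose them, was 1443, 983, 1279 and 1022 CPM, against 0.161, 0, 0 and 0.303 CPM. Ptprc and Csf1r, which did not choose them, were missing from most of the 93 cells and go against the monocyte label there. The 93 cells made up 3.31%, 5.17%, 9.85% and 12.2% of the members in the 4 libraries. In the vehicle and RvD1 recipient libraries 11 of 13 and 42 of 47 of them had no Ptprc UMI. The labels state a sort on CD45, and whether these cells came from the host was not tested. For them, donor or recipient names the library only. A further 8 members (7, 1, 0 and 0) had at least 10 UMIs of alveolar macrophage genes. The share of endothelial cells was higher in both recipient libraries, so the gene results that matter most are given over all members and again over the 1229 cells (460, 311, 119 and 339) without these 2 types, a subset chosen after seeing the data.

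**Figure D1:**
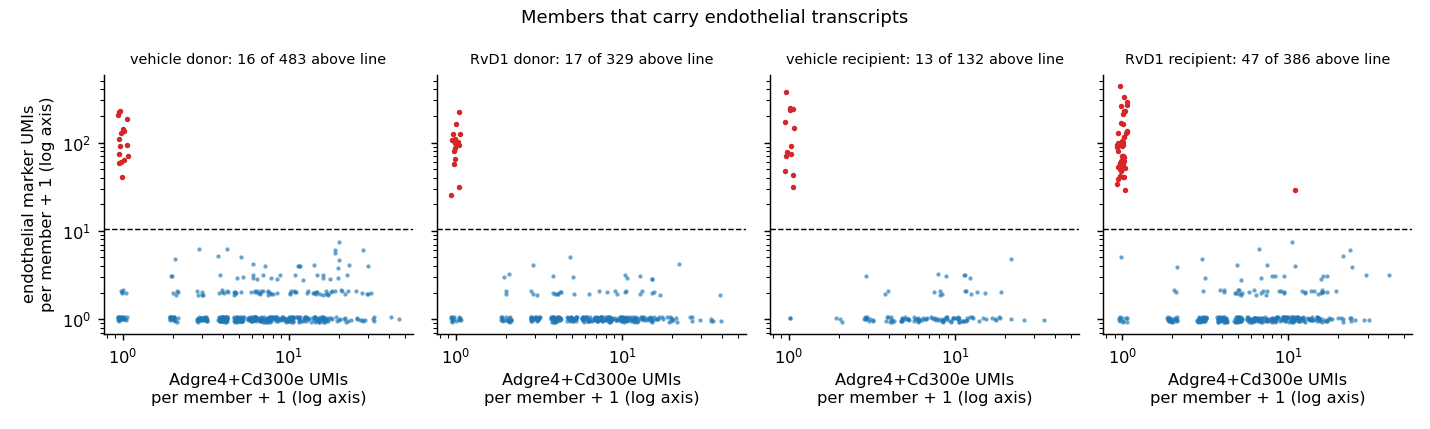
Each point is a member, in 1 panel per library. The horizontal axis gives UMIs of Adgre4 and Cd300e plus 1 and the vertical axis UMIs of the 8 endothelial genes plus 1, both on log axes with small jitter; the dashed line marks 10 UMIs. Above the line lie 16, 17, 13 and 47 cells in red, and 92 of these 93 have no Adgre4 or Cd300e UMI, while 9 members lie between 5 and 9 endothelial UMIs.

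Ace was detected in 93.2%, 90.6%, 89.4% and 97.4% of members, Adgre4 in 89.9%, 87.8%, 87.1% and 84.2% and Cd300e in 42.0%, 41.3%, 53.0% and 47.7%. At least 2 of the 3 genes were seen in 85.7%, 81.8%, 80.3% and 83.2% of members. The median sum of the 3 genes was 10, 9, 11 and 10 UMIs. Just inside the threshold, 116 members had a sum of 3, and 193 cells that met the other conditions had a sum of 2. For S100a8 and S100a9, 872 members had 0 or 1 UMI and 45 had 5 to 9. Outside that limit, 9 cells had 10 to 19 UMIs and 408 had 100 or more, so few cells lay near the limit.

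**Figure D2:**
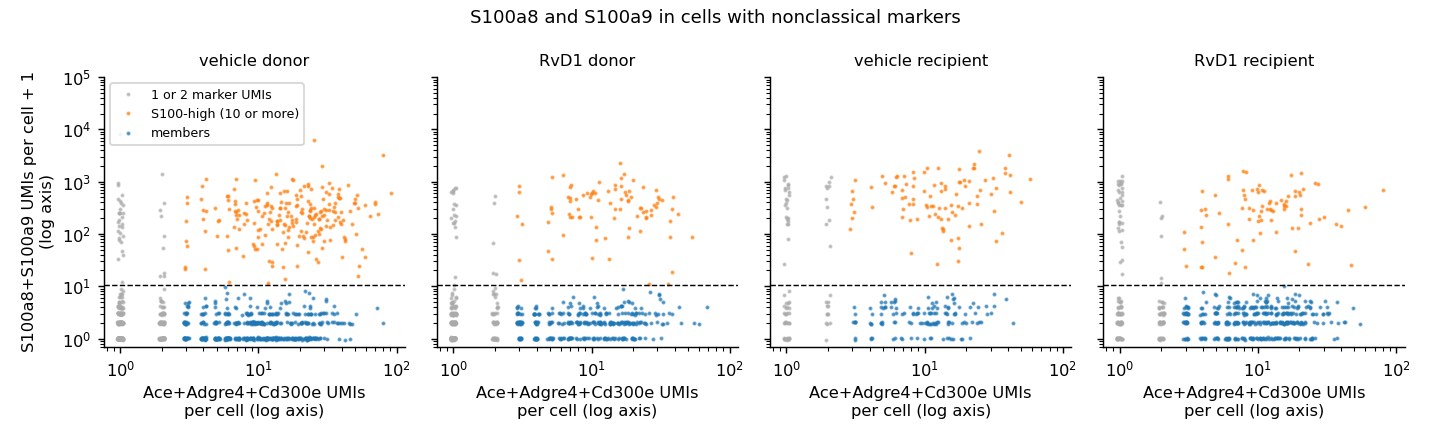
Each point is a cell that met the C1q and lymphoid conditions, in 1 panel per library. The horizontal axis gives UMIs of Ace, Adgre4 and Cd300e and the vertical axis UMIs of S100a8 and S100a9 plus 1, both on log axes with small jitter; the dashed line marks 10 UMIs. Members (blue) lie below the line with 872 of 1330 at 0 or 1 UMI, the S100-high cells (orange) lie mostly above 100 UMIs, and grey cells have a marker sum of 1 or 2.

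Among donor cells, members made up 8.54% with vehicle (95% Clopper-Pearson interval 7.82 to 9.30) and 6.46% with RvD1 (5.80 to 7.17), as 483 and 329 cells. Among recipient cells they made up 2.23% with vehicle (1.87 to 2.64) and 5.06% with RvD1 (4.58 to 5.58), as 132 and 386 cells. Without the endothelial and alveolar macrophage cells the shares were 8.13%, 6.11%, 2.01% and 4.45%. The vehicle recipient library had the lowest share by either count. Neutrophils, counted as cells with at least 10 S100a8 and S100a9 UMIs, at least 3 of Csf3r and Cxcr2 and none of the 3 marker genes, made up 23.1%, 35.8%, 54.4% and 38.4% of the same libraries. The 2 shares have a common denominator and ran in opposite order across the 4 libraries, and the part of the neutrophil share in this order was not tested. Intervals in all results cover counting error only, and not the spread between mice.

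Members were set beside 5 other classes cut by UMIs of a few genes. S100-high cells met the same rule but had 10 or more S100a8 and S100a9 UMIs (226, 90, 97 and 84 cells, with a median of 222.5, 319, 520 and 301 such UMIs). Classical monocytes had Ly6c2, Ccr2 and Csf1r, with at least 4 UMIs of the first pair together and at most 1 of Ace, Adgre4 and Cd300e (174, 316, 77 and 75 cells); cells with Cxcr2, Flt3 or Siglech were left out of them. The others were neutrophils (1308, 1824, 3218 and 2926), C1q macrophages (70, 66, 4 and 8) and T cells with at least 2 Cd3e UMIs (781, 661, 554 and 1251).

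Ace stood at 399.7, 387, 478 and 557 CPM in members, at 387, 354, 283 and 459 in S100-high cells and at 6.35, 2.78, 3.61 and 8.93 in classical monocytes. It had 0 UMIs in neutrophils and in T cells, whose rules exclude it. Adgre4 stood at 400.0, 373, 477 and 437 CPM in members and 419.9, 385, 398 and 441 in S100-high cells, and Cd300e at 124, 113, 142 and 148 and 153, 155, 133 and 159. The rule sets a minimum for the sum of these 3 genes in both classes; between them, Ace of the vehicle recipient library lay furthest apart. Apoc2, which the rule did not use, was at 343, 385, 453 and 473 CPM in members, at 115, 229, 227 and 138 in classical monocytes and at 1.25, 5.04, 0.177 and 1.03 in T cells. Pparg was at 256, 142, 193 and 225 CPM in members and at 13.1, 15.5, 11.7 and 7.82 in classical monocytes. Every library thus had more Apoc2 and more Pparg in members than in classical monocytes, by a wide margin for Pparg and by a narrower one for Apoc2.

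**Figure D3:**
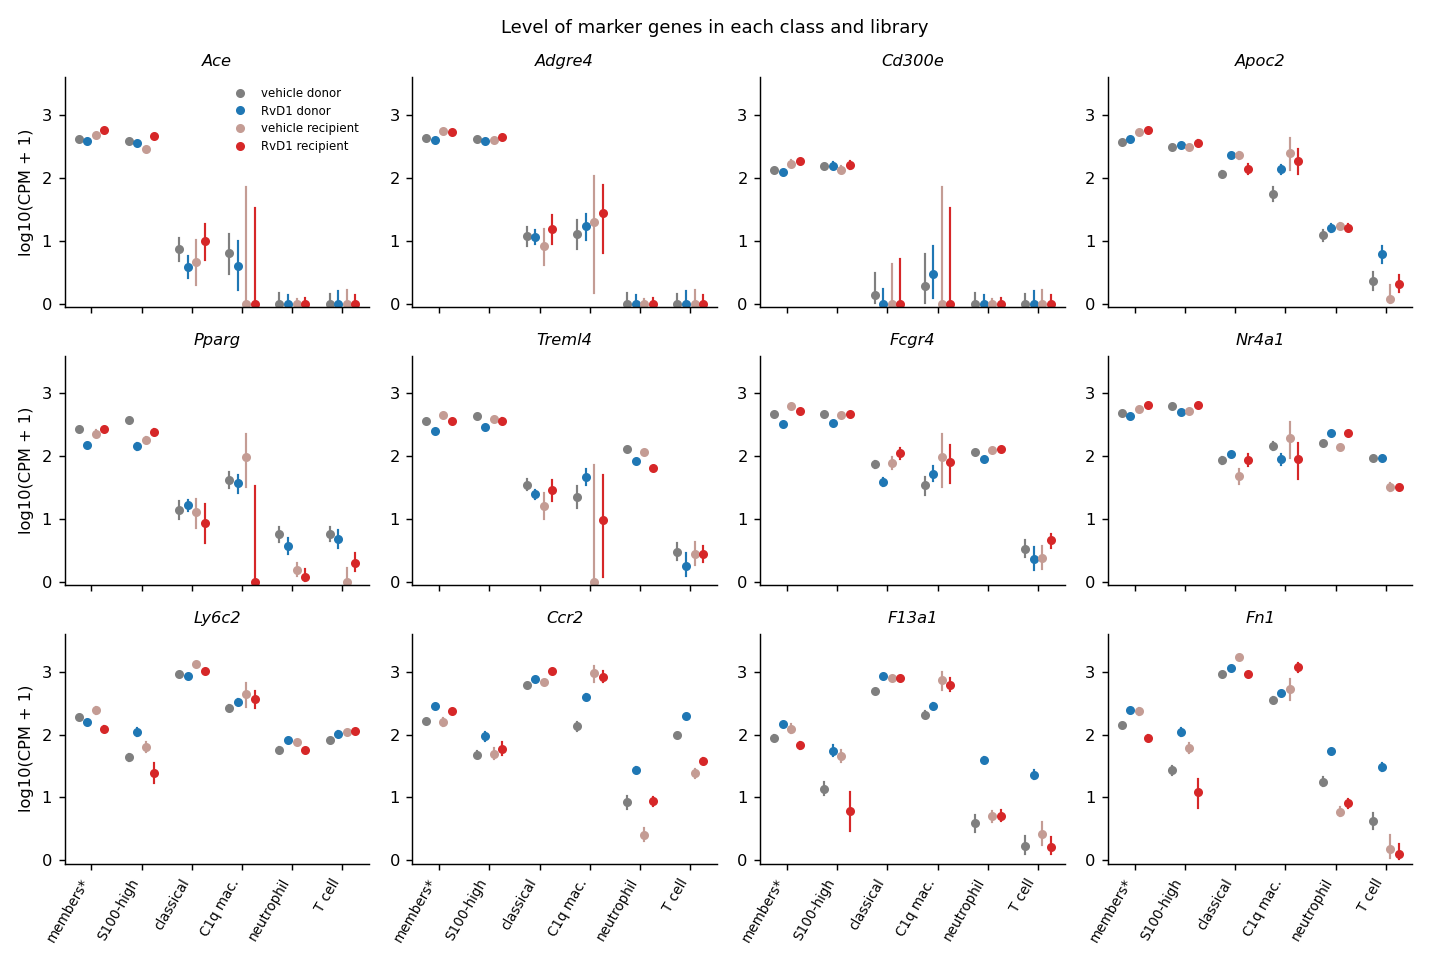
Each panel shows 1 gene, with log10(CPM + 1) on the vertical axis in 6 cell classes; the points are the 4 libraries and the bars their 95% Poisson counting intervals. Members* leaves out endothelial and alveolar macrophage cells. Pparg, Treml4 and Nr4a1 lie higher in members and S100-high cells than in classical monocytes in all 4 libraries, and Ly6c2, F13a1 and Fn1 lie lower.

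Against classical monocytes of the same library, 208 of 3825 genes with at least 100 UMIs over both classes in each library (5.44%) were at least 2-fold higher in members in all 4 libraries and 63 (1.65%) were at least 2-fold lower. Without the endothelial and alveolar macrophage cells, 168 of 3497 (4.8%) were higher and 61 (1.74%) lower. Rules on UMIs chose both classes, so these counts are a description with no test. Of the 24 genes listed for nonclassical monocytes, 3 are genes of the rule and were left out of this count. Of the other 21, 19 had enough UMIs and 16 were higher, with a median log2 ratio of 2.44, 2.18, 2.80 and 2.48, against 0.11, 0.05, 0.09 and 0.16 over all genes. Of 13 genes listed for classical monocytes, 2 that chose the classical cells were left out, and 8 of the other 11 were lower (medians -1.65, -1.98, -2.90 and -2.82). Without the endothelial and alveolar macrophage cells 16 of 19 were higher and 7 of 11 lower.

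Treml4, a receptor that binds dying cells, was at 345, 233, 385 and 294 CPM in members and 34.4, 23.8, 15.4 and 27.9 in classical monocytes, a log2 ratio of 3.33, 3.29, 4.65 and 3.4. Ear2, a ribonuclease gene, was at 208, 169, 177 and 271 against 17.2, 13.9, 12.6 and 20.1 CPM, with log2 ratios of 3.59, 3.61, 3.81 and 3.75. Cd36, a scavenger receptor for oxidised lipids that endothelium also makes, was at 751, 374, 753 and 814 against 53.4, 28.0, 19.9 and 31.3 CPM. All 4 libraries of members lay above all 4 libraries of classical monocytes for these 3 genes, and without the endothelial and alveolar macrophage cells Cd36 still had log2 ratios of 3.74, 3.64, 4.96 and 4.50. Over all members, the endothelial cells among them, Fabp4, a fatty acid carrier, had log2 ratios of 3.72, 5.27, 5.62 and 6.81. Cyp2ab1, a cytochrome P450 gene, had ratios of 3.25, 3.07, 4.59 and 6.35 in the same cells. Slc12a2, a sodium, potassium and chloride cotransporter, was at 107, 95.7, 152 and 127 CPM in members and 2.99, 1.79, 1.81 and 2.23 in classical monocytes. The sphingosine-1-phosphate receptor gene S1pr5 was at 44.6, 51.9, 74.9 and 83.1 CPM in members and rested on 1, 3, 0 and 1 UMIs in classical monocytes. Slc12a2 and S1pr5 were therefore low in classical monocytes, where their values rest on few UMIs.

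Genes of transcription and survival were also higher in members. Nr4a1, on which nonclassical monocytes depend, was at 463, 414, 509.9 and 558 CPM in members and 85.5, 106, 47.0 and 87.1 in classical monocytes, with log2 ratios of 2.44, 1.96, 3.44 and 2.68. Pou2f2, a factor of the octamer family, had log2 ratios of 1.96, 1.67, 2.38 and 1.80, Klf2 of 1.61, 1.32, 1.70 and 2.09 and the dual-specificity phosphatase gene Dusp16 of 3.67, 3.18, 4.13 and 3.51. Of the 21 survival and differentiation factors, 19 had enough UMIs and 8 were higher in all 4 libraries, against 5.44% of all genes. For adhesion and patrolling 9 of 19 were higher and 1 lower, against 5.44% and 1.65% of all genes. Spn (CD43) had log2 ratios of 2.75, 2.85, 4.37 and 3.6, Itgax of 2.82, 2.5, 3.84 and 2.54 and the fractalkine receptor gene Cx3cr1 of 1.96, 1.58, 2.70 and 2.11. The Fc receptor gene Fcgr4 had 2.57, 3.04, 2.80 and 1.98 and Gngt2, a G protein subunit, 2.02, 2.18, 2.30 and 2.48.

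Among the genes with the lowest ratios to classical monocytes, F13a1, a coagulation factor subunit, was at 83.0, 139, 104 and 54.6 CPM in members and 501, 842, 779 and 787 in classical monocytes. Fn1 (fibronectin) was at 147, 235, 214 and 82.3 against 919, 1122, 1718 and 920.2 CPM, and Vcan (versican) at 314, 507, 146 and 132 against 982, 1588, 1069 and 822. Every library of members lay below every library of classical monocytes for these 3 genes. The chemokine receptor gene Ccr1 had log2 ratios of -2.83, -2.11, -2.86 and -3.26, the chemokine gene Ccl2 of -2.40, -3.07, -4.67 and -4.17 and the collagenase gene Mmp8 of -2.83, -2.61, -3.37 and -3.90. In the list of chemokine and chemoattractant receptors 2 of 9 genes were lower and 1 higher, against 1.65% and 5.44% of all genes. In the type I interferon list 0 of 18 genes passed in either direction, with medians of -0.85, -0.43, -1.25 and -0.96. The 64 respiratory chain genes with enough UMIs had medians of -0.44, -0.45, -0.58 and -0.57, and 0 passed.

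S100-high cells, which met the same marker minimum, carried more transcripts of neutrophil genes. After each cell was thinned to 2000 UMIs, which left out 3 RvD1 recipient members, the neutrophil gene Retnlg was seen in 0.207%, 0.912%, 3.79% and 1.83% of members and in 27.9%, 40.0%, 74.2% and 55.4% of S100-high cells. The neutrophil chemokine receptor gene Cxcr2 was seen in 0.621%, 0.304%, 0% and 0.261% of members and in 39.8%, 50%, 46.4% and 53.0% of S100-high cells. Members were thus low in Retnlg and Cxcr2, which the rule did not use. Before thinning, 209 of 483, 174 of 329, 73 of 132 and 202 of 386 members had no UMI of Retnlg, Cxcr2 or Csf3r. S100-high cells had higher median UMI counts (19780, 17225, 16471 and 13551.5), and Scrublet marked 9, 5, 0 and 23 of them as doublets, 27.4% in RvD1 recipient. Whether those cells hold 2 cells each was not tested here.

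Of the receptors through which resolvins are thought to act, Fpr2, a formyl peptide receptor, was at 42.2, 33.2, 28.0 and 41.5 CPM in members, at 140.1, 147, 148 and 148 in S100-high cells and at 249.8, 256, 247 and 257 in neutrophils. Cmklr1, the chemerin receptor, was at 60.8, 44.0, 37.1 and 30.2 CPM in members and at 13.4, 9.07, 7.82 and 3.59 in neutrophils. Gpr18 was at 20.8, 12.8, 16.1 and 17.8 CPM in members and at 78.3, 81.4, 163 and 192 in T cells. Members therefore held more Cmklr1 and less Fpr2 than neutrophils in each library, and less Gpr18 than T cells. Between treatments, Cmklr1 had log2 ratios of RvD1 over vehicle of -0.47 and -0.30 in donor and recipient members, Fpr2 of -0.35 and 0.57, and neither passed 1.5-fold in both.

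Members differed among themselves in classical monocyte genes. Before thinning, 156 of 460, 95 of 311, 27 of 119 and 74 of 339 members without the 2 other types had a Ly6c2 UMI. Thinned to 2000 UMIs, 12.8%, 14.1%, 10.9% and 9.23% of these members had one, against 11.8%, 9.38%, 14.6% and 11.8% of T cells and 64.9%, 66.1%, 85.7% and 64.9% of classical monocytes, whose rule asks for the gene. The share in members was near that in T cells, some of which are known to make Ly6C; the part of free RNA in it was not tested. The cells with a Ly6c2 UMI were deeper, with a median of 15990.5, 17139, 14542 and 11784.5 UMIs against 11288, 10983, 7928 and 8283.

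The levels of other genes also differed between members with and without a Ly6c2 UMI. F13a1 was at 184, 304, 372 and 168 CPM in members with a Ly6c2 UMI and at 21.1, 38.4, 3.66 and 28.0 in those without. Vcan was at 653, 1070.4, 504 and 422 against 114, 177, 12.2 and 55.9 CPM, and Ccr2 at 267, 476, 407 and 518 against 95.8, 154, 40.3 and 129. In each library these 3 classical genes were higher in the cells with Ly6c2. In the other direction, Pparg was at 84.3, 73.2, 12.7 and 88.0 CPM with Ly6c2 and 396, 204, 331 and 344 without. Cd36 had log2 ratios of -1.64, -1.84, -3.01 and -1.49, Treml4 of -1.18, -0.93, -1.62 and -1.18 and Nr4a1 of -1.14, -0.64, -2.38 and -0.62. In all 4 libraries, the cells without a Ly6c2 UMI thus had more Pparg, Cd36, Treml4 and Nr4a1, and those with one more F13a1, Vcan and Ccr2. Deeper cells reach the rule's marker minimum at a lower CPM and show a Ly6c2 UMI more often, and the part of depth in this split was not tested.

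Between treatments, few genes differed in the same direction in donor and in recipient members. Of 6195 genes with at least 100 UMIs over both libraries of each contrast, 76 (1.23%) were at least 1.5-fold higher with RvD1 in both and 96 (1.55%) at least 1.5-fold lower. Without the endothelial and alveolar macrophage cells the counts were 56 of 5368 (1.04%) and 105 (1.96%). The median log2 ratio over all genes was -0.07 in donor and -0.01 in recipient members. Each ratio is given as donor, then recipient, with a 95% binomial counting interval where a pair of values carries the result, and the software version stands with treatment in all of them. None of the 24 genes listed for nonclassical monocytes was 1.5-fold different in both origins.

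Of the linker histone genes, 3 are described here because they ranked among the highest ratios or were singled out, and no list of them was counted. Hist1h1c was at 35.6, 125, 48.3 and 98.4 CPM, with log2 ratios of 1.81 (1.59 to 2.04) and 1.03 (0.65 to 1.42). Hist1h1e was at 44.8, 108, 46.2 and 122 CPM, with 1.27 (1.06 to 1.48) and 1.40 (1.03 to 1.80). Both RvD1 libraries lay above both vehicle libraries for these genes, and without the 2 other cell types the ratios were 1.83 and 1.09 and 1.2 and 1.44. H1f0, the replacement linker histone, had 1.37 and 0.86. Transcripts of near-identical histone genes can be split between gene models, so their single values are uncertain. Classical monocytes had Hist1h1c ratios of 2.10 and 1.78 and Hist1h1e ratios of 1.67 and 1.30, and S100-high cells 1.17 and 1.00 and 1.40 and 1.49, all above 0.

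Mpp7, a scaffold protein of cell polarity, was at 42.8, 116, 24.5 and 74.4 CPM, with log2 ratios of 1.44 (1.23 to 1.65) and 1.60 (1.09 to 2.15). In S100-high cells, where its level was 353, 454, 439 and 677 CPM, the ratios were 0.36 and 0.62, and in classical monocytes 1.43 and 0.19. Wdr89, a WD repeat protein, was at 29.6, 69.3, 20.3 and 87.8 CPM with 1.23 (0.96 to 1.49) and 2.11 (1.56 to 2.71), and had 0.88 and 2.27 in classical monocytes. Both genes were higher in each RvD1 library than in each vehicle library, and without the other cell types the ratios were 1.60 and 1.81 and 1.22 and 2.04. Cdh23, a cadherin, had ratios of 1.16 and 1.07, Cdkn2d, an inhibitor of cyclin-dependent kinases, 1.01 and 0.92, and E2f2, a cell cycle transcription factor, 0.84 and 0.79.

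Interferon-induced GTPases were lower with RvD1. Of 16 guanylate-binding and immunity-related GTPase genes (Irf1 among them), 12 had enough UMIs, 4 of them passed as lower in donor and recipient members alike (Gbp2, Gbp3, Gbp5 and Irgm1) and 0 as higher, against 1.55% of all genes lower. In donor members the list had a median log2 ratio of -0.79, and in recipient members of -0.46. Gbp2, a guanylate-binding protein that acts on pathogen vacuoles, was at 53.5, 19.6, 77 and 28.2 CPM, with log2 ratios of -1.45 (-1.80 to -1.11) and -1.45 (-1.84 to -1.06). Gbp3 was at 29.8, 10.8, 46.9 and 16.3 CPM with -1.47 and -1.52, and Gbp5 at 50.8, 8.58, 45.5 and 19.5 CPM with -2.56 and -1.22. For each of the 3 genes, both vehicle libraries lay above both RvD1 libraries. Irgm1, which regulates the other immunity-related GTPases, was at 49.6, 28.2, 85.5 and 47.5 CPM with -0.82 and -0.85, and its lowest vehicle value lay just above its highest RvD1 value. Reads of the Gbp family can be split between near-identical copies, so a value for a single member of it is uncertain.

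Without the endothelial and alveolar macrophage cells these differences were larger in the genes given here. Too few genes of the list then reached the UMI minimum to repeat its count. Gbp2 was then at 51.2, 10.1, 80.9 and 15.7 CPM, with log2 ratios of -2.34 (-2.83 to -1.87) and -2.36 (-2.88 to -1.86). Gbp5 had -3.17 and -2.30, Gbp3 -1.71 and -1.83 and Irgm1 -1.96 and -1.15, on fewer UMIs than the minimum used for counts. Irf1, the transcription factor that drives this family, was at 151, 74.7, 151 and 93.8 CPM in that subset, with -1.02 and -0.69 against -0.51 and -0.37 over all members. In classical monocytes the Gbp2 ratios were -1.61 and -1.82, in S100-high cells -1.48 and -1.45 and in neutrophils -1.0 and -0.60. Gbp2 was thus lower in the RvD1 library in both origins in each of these classes.

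The promoters of these 4 genes are shown because the genes were lower together and interferon response factors are known to bind a repeat of GAAA. The letters GAAANNGAAA were searched on both strands in the 250 bases before each RefSeq start on GRCm38.p6. They were found for 9 of the 11 listed genes that the RefSeq table holds (Ifi47 and Irf1 had no match), and for 3.46% of 27025 genes. Among the 9 were Gbp7, Irgm2, Igtp, Tgtp1 and Tgtp2, which were not counted as lower, so the match did not set the 4 genes apart. A second pattern searched in the same way, TTCNNNGAA, was found for 7 of the 11 and for 8.13% of all genes; of the 4 genes shown, Gbp5 had it and Gbp2, Gbp3 and Irgm1 had not. Each stretch runs 5′ to 3′ on the gene's strand, with the GAAANNGAAA match or its complement in capitals, and 2 overlapping matches in Gbp3 and Irgm1.
Gbp2, chr3:142620584-142620633, plus strand: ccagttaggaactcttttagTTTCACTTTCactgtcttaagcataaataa
Gbp3, chr3:142559979-142560034, plus strand: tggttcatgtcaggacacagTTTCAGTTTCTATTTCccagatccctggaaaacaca
Gbp5, chr3:142496749-142496798, plus strand: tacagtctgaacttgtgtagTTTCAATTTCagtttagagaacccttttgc
Irgm1, chr11:48871421-48871470, minus strand: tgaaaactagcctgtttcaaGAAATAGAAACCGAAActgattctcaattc
The match ended 49, 29, 155 and 14 bases before the start of Gbp2, Gbp3, Gbp5 and Irgm1. These are matches of letters and were not measured as binding sites here.

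Some other interferon genes were lower as well. Against 1.55% of all genes, 2 of 19 genes in the type I interferon list passed as lower and 0 as higher. Ifi205, a sensor of DNA, was among them, with log2 ratios of -0.82 and -1.05, but its donor ratio was 0.060 in members with no Ly6c2 UMI. The list's medians were -0.45 and -0.11, and -0.65 and -0.25 without the other cell types. Nlrc5, the activator of MHC class I genes, was at 62.3, 29.3, 77.7 and 35.9 CPM with -1.09 (-1.38 to -0.80) and -1.12 (-1.48 to -0.75), the only gene of 16 in the class I list to pass over all members. H2-Q7, a class I gene with near-identical neighbours, had -0.89 and -0.40 over all members and -1.15 and -1.03 without the other cell types.

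Hmox1, haem oxygenase, which breaks down free haem, was at 713, 261, 382 and 158 CPM in members, with log2 ratios of -1.45 (-1.54 to -1.36) and -1.27 (-1.44 to -1.11). Without the other cell types the ratios were -1.31 and -1.35. Both RvD1 libraries lay below both vehicle libraries, and Hmox1 was the only gene of 23 in the haem and redox list to pass over all members. Per cell, 28.9%, 51.8%, 48.7% and 58.1% of the members without other types had no Hmox1 UMI. Hmox1 had ratios of -0.85 and -1.08 in classical monocytes, -0.58 and 0.13 in S100-high cells and -1.56 and -2.03 in neutrophils. Hmox1 was therefore lower with RvD1 in both origins in members, classical monocytes and neutrophils, and only in the donor library in S100-high cells; the difference between classes was not tested.

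A pair of orphan nuclear receptor genes of the immediate response were lower with RvD1. Nr4a3 was at 64.4, 29.3, 49 and 22 CPM, with log2 ratios of -1.14 (-1.43 to -0.85) and -1.16 (-1.62 to -0.68). Nr4a2 was at 147, 73.9, 133 and 53.7 CPM, with -0.99 (-1.17 to -0.81) and -1.31 (-1.60 to -1.02). Their relative Nr4a1, which marks nonclassical monocytes, was at 463, 414, 509.9 and 558 CPM and did not pass. Marcksl1, an actin-binding protein, was at 177, 73.7, 173 and 78.4 CPM with -1.27 (-1.45 to -1.09) and -1.14 (-1.39 to -0.90), against -0.68 and -0.33 in S100-high cells. Cyp27a1, which oxidises the side chain of cholesterol, was at 31.7, 12.5, 38.5 and 16.3 CPM with -1.34 and -1.24. The Toll-like receptor gene Tlr2, which senses bacterial lipopeptides, was at 301, 138, 201 and 129 CPM with -1.12 and -0.64. The cholesterol exporter gene Abca1 was at 162, 74.2, 104 and 73.4 CPM with -1.13 and -0.50, so it passed 1.5-fold in donor members alone; the difference between origins was not tested. For Nr4a2, Nr4a3, Marcksl1, Cyp27a1 and Tlr2, both vehicle libraries lay above both RvD1 libraries. Without the other cell types the ratios were -1.31 and -1.28 for Nr4a3, -1.03 and -1.28 for Nr4a2, -1.32 and -1.39 for Marcksl1 and -0.98 and -0.60 for Tlr2.

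Of 20 heat shock genes 6 were lower with RvD1 and 0 higher, against 1.55% of all genes lower, with medians of -0.55 and -0.22. Hspa1a, an inducible chaperone, was at 117, 23.1, 420.2 and 127 CPM over all members but at 67.4, 7.30, 49.5 and 54.8 without endothelial and alveolar macrophage cells. Its recipient log2 ratio was -1.72 over all members and 0.15 without those cells, so its recipient difference was not found without the endothelial cells. Its near-identical copy Hspa1b had -2.65 and -1.48 and then -2.77 and -0.04. Hsph1 was at 40.4, 9.46, 60.9 and 27.9 CPM with -2.10 and -1.12, and -2.16 and -0.86 without the other types. The cochaperone gene Dnaja1 was at 391, 232, 454 and 296 CPM with -0.76 and -0.62, and -0.94 and -0.87 without. Icam1, a ligand of leukocyte integrins that endothelium makes, turned in the same way: its recipient ratio was 0.93 over all members and -0.84 without the other types.

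Of the label's other markers, none differed 1.5-fold between treatments in both origins. Pparg had ratios of -0.85 and 0.22, Cd36 of -1.01 and 0.11, Apoc2 of 0.17 and 0.06 and Treml4 of -0.57 and -0.39. Ccl5 had ratios of -1.37 and -4.29, but 78.3% of its UMIs in recipient members were in 1 cell. The dendritic cell genes Ccr7, Fscn1 and Ccl22 were at 36.4, 65.8 and 80.5 CPM in the vehicle recipient members and at most 6.59 CPM in the other 3 libraries, and their part in the Ccl5 value was not tested.

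Other pathways held few genes that passed between treatments. Of all genes, 1.23% passed as higher and 1.55% as lower, or 1.04% and 1.96% without the other cell types. In the interleukin-1 and inflammasome list 2 of 14 genes were lower over all members, the sensor gene Nlrp3 at 199, 128, 129.6 and 81.8 CPM (-0.64 and -0.66) and the ATP-gated channel gene P2rx7 at 23.2, 11.4, 35.02 and 13.1 CPM (-1.02 and -1.42), and 0 of the 13 with enough UMIs passed without the other cell types. In the TNF and NF-kB list, 1 of 28 genes was higher and 1 lower, and without the other cell types 1 of 27 was higher (Ccl3) and 3 lower (Tnfaip3, Icam1 and Cd40). The higher one was Ptgs2, which makes the prostaglandin precursor, at 44.3, 73.5, 25.9 and 91.2 CPM with 0.73 and 1.82; without the endothelial and alveolar macrophage cells it had 0.66 and 0.16 and did not pass. The lower one was Tnfaip2, at 343, 222, 219 and 124 CPM with -0.63 and -0.81, or -0.57 and -0.93 without those cells. Among the immediate early genes 0 of 22 passed (medians -0.28 and -0.03), among the lipid genes 0 of 21 (-0.33 and -0.02), among the lysosomal genes 0 of 31 and among the Fc receptor and phagocytosis genes 0 of 17. The 66 respiratory chain genes had medians of 0.36 and 0.05, and 0 of them passed. Without the other cell types 3 of 19 heat shock genes were lower (Hspa8, Hsph1 and Dnaja1) and 3 of 16 in the class I list, against 1.96% of all genes.

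**Figure D4:**
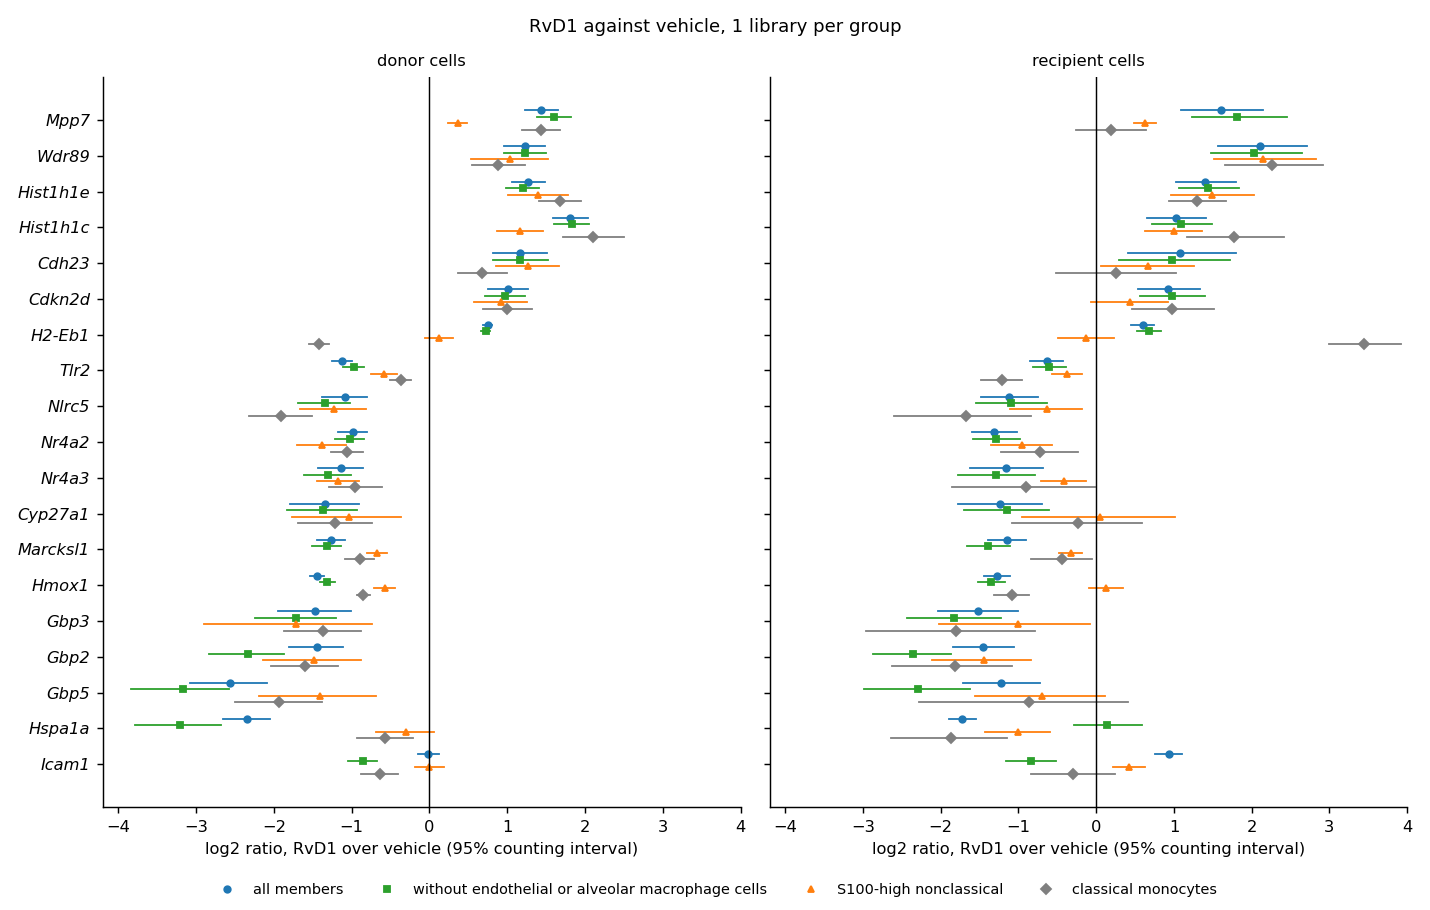
The log2 ratio of RvD1 over vehicle is plotted for 19 genes in donor cells (left) and recipient cells (right), for 4 sets of cells; lines are 95% binomial counting intervals, and points without enough UMIs are left out. The histone genes, Wdr89 and Mpp7 lie right of 0 and Gbp2, Gbp3 and Nlrc5 left of 0 wherever they are plotted, whereas Icam1 and Hspa1a change with the endothelial cells in recipient members.

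Between origins, the counts depended on the endothelial cells that the rule takes in. Among 6913 genes, 266 (3.85%) were at least 1.5-fold higher in recipient members under both treatments and 100 (1.45%) at least 1.5-fold lower. Without the endothelial and alveolar macrophage cells 30 of 6352 (0.472%) were higher, of which 17 were among the 266, and 67 (1.05%) lower. Of the 9 endothelial genes, 8 were higher over all members, with medians of 2.07 and 1.80. Galnt18 was at 13, 16.1, 96.0 and 86.1 CPM over all members and had 0 UMIs in the 1229 other cells. Cd93 was at 118, 154, 275 and 271 CPM with ratios of 1.21 and 0.81 (vehicle, then RvD1) over all members and of -1.13 and -1.66 without the 2 types. Egr1, an immediate early factor, had 2.31 and 1.30 and then 0.94 and 0.06. Not all genes that follow passed 1.5-fold under both treatments without these cells (Il1r2 and Clec4d, for example, did not). Each recipient over donor ratio lies within 1 software version.

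MHC class II genes, which present antigen to CD4 T cells, were lower in recipient members. Of the 11 listed genes 10 had enough UMIs and 5 were at least 1.5-fold lower under both treatments (H2-Aa, H2-Ab1, H2-Eb1, Cd74 and Ciita), in either set of cells, against 1.45% of all genes; the list's medians were -0.70 and -0.89. H2-Aa was at 1143, 1710.3, 604 and 763 CPM, with log2 ratios of -0.92 (-1.02 to -0.82) and -1.16 (-1.22 to -1.10). H2-Ab1 was at 1124, 1487, 615 and 724 CPM and H2-Eb1 at 689, 1159.8, 325 and 491 CPM, with -0.87 and -1.04 and -1.08 and -1.24. Both recipient libraries lay below both donor libraries for the 3 genes. Cd74, the invariant chain, was at 3444, 4683, 2138 and 2453 CPM with -0.69 and -0.93, and Ciita, the transactivator of class II genes, at 44.6, 33.7, 18.9 and 14.8 CPM with -1.24 and -1.18. Without the other cell types the ratios were -0.83 and -1.01 for H2-Aa and -1.13 and -1.26 for Ciita. In S100-high cells H2-Aa had -0.78 and -1.12, and in classical monocytes -2.84 and 1.27, so classical monocytes differed in sign between treatments. H2-Eb1 was also higher with RvD1, at 0.75 and 0.60 in donor and recipient members.

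The class II transcripts were spread unevenly over cells. The sum of H2-Aa, H2-Ab1 and H2-Eb1 was 0 in 38.0%, 41.2%, 47.1% and 62.2% of members without other types, and above 5000 CPM in 18.7%, 25.7%, 8.40% and 11.2% (86, 80, 10 and 38 cells). The median cell had 142, 113, 91.0 and 0 CPM, while the 90th percentile was 9374, 15473, 4331 and 7273 CPM. The recipient libraries had more cells at 0 and fewer above 5000 CPM than the donor libraries. Thinned to 2000 UMIs, H2-Aa was seen in 37.2%, 39.2%, 26.1% and 23.5% of these members and in 3.71%, 1.06%, 0.542% and 0.641% of T cells, so at equal depth the recipient shares were still the lower ones and all 4 lay above those in T cells. Summed dendritic cell markers stood at 41.6, 38.5, 212 and 54.6 CPM in members, and the level of Flt3, which defines that lineage, was 5.84, 7.70, 2.10 and 5.93 CPM.

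**Figure D5:**
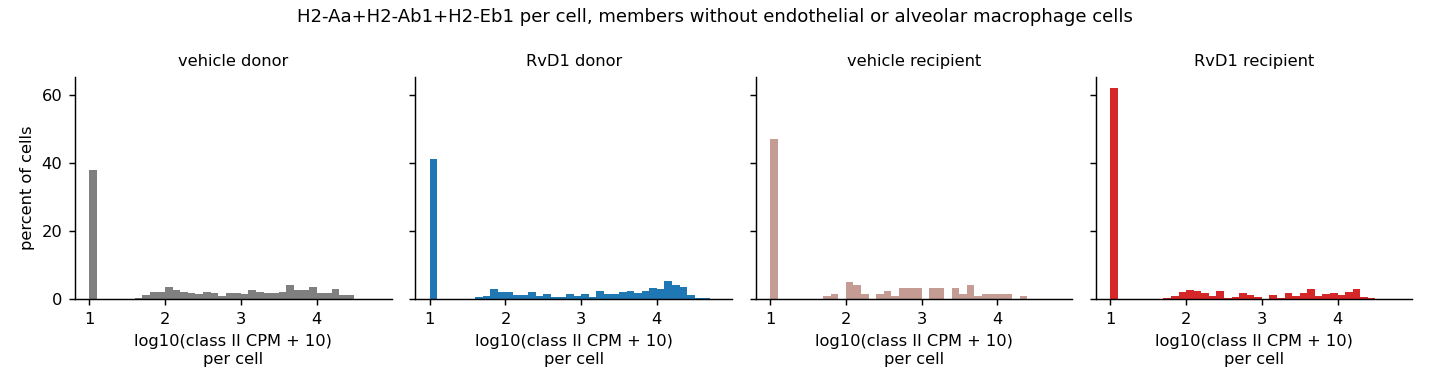
The histograms give the percent of cells (vertical axis) by the log10 of the summed CPM of H2-Aa, H2-Ab1 and H2-Eb1 plus 10 (horizontal axis), for members without endothelial or alveolar macrophage cells, in 1 panel per library. The bar at the left is the cells with none, 38.0%, 41.2%, 47.1% and 62.2%, and the rest spread over more than 2 log10 units.

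In the classical monocyte list 3 of 12 genes were lower in recipient members (Chil3, Vcan and Cd177) and 0 higher, against 1.45% of all genes lower. The list's medians were -0.19 and -0.59, against -0.02 and 0.05 over all genes. In the subset of 1229 cells 2 of 12 were lower, against 1.05% of all genes, with medians of -0.039 and -0.40. F13a1 and Fn1 of that list had ratios of 0.33 and -1.35 and 0.54 and -1.52, with opposite signs under the 2 treatments. Chil3, a chitinase-like protein of myeloid cells and alveolar macrophages, was at 428, 518, 87.6 and 123 CPM, with log2 ratios of -2.29 (-2.56 to -2.03) and -2.07 (-2.21 to -1.93) over all members and -1.11 and -1.88 without alveolar macrophage and endothelial cells. Vcan was at 314, 507, 146 and 132 CPM with -1.11 and -1.94, and was seen in 22.6%, 29.6%, 6.72% and 12.8% of members without other types after thinning. Mmp19, a matrix metalloproteinase, was at 50.01, 98.4, 18.2 and 28.2 CPM with -1.46 and -1.80. Both recipient libraries lay below both donor libraries for Chil3, Vcan and Mmp19. Tgfbi, a matrix protein induced by TGF-beta, was at 512, 578, 291 and 317 CPM with -0.81 and -0.87, and the lipase gene Aoah, which inactivates endotoxin, at 19.3, 17.2, 8.40 and 5.93 CPM with -1.2 and -1.53. In classical monocytes Tgfbi had -0.66 and -0.15 and Aoah 0.43 and 0.28.

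Receptors and signals were among the lower genes. Ptafr, the receptor of platelet-activating factor, was at 353, 224, 175 and 124 CPM, with ratios of -1.01 (-1.2 to -0.82) and -0.85 (-1.01 to -0.70). In S100-high cells its ratios were -0.01 and 0.06 and in classical monocytes -0.05 and -0.15, both near 0, and the difference between classes was not tested. The members' ratios were -0.86 and -0.64 without the other cell types. Htr7, a serotonin receptor, was at 36.5, 30.4, 11.9 and 12.4 CPM with -1.62 and -1.30, and Clec4n (dectin-2), a receptor for fungal mannans, at 122, 122, 47.6 and 60.1 CPM with -1.35 and -1.02. The liver X receptor gene Nr1h3 was at 26.4, 36.3, 16.1 and 17.3 CPM with -0.71 and -1.07. Of 10 chemokine genes with enough UMIs 3 were lower (Ccl2, Ccl4 and Cxcl2) and 0 higher, against 1.45% of all genes lower. Cxcl2, which attracts neutrophils, was at 448, 550.1, 162 and 275 CPM with -1.46 and -1.0, and Ccl4 at 58.5, 36.5, 9.11 and 17.1 CPM with -2.68 and -1.10. However, 28.0% of the recipient Ccl4 UMIs were in 1 cell. The RvD1 ratio of Ccl4 was 0.21 in members with no Retnlg, Cxcr2 or Csf3r UMI. Cxcl2 stood at 5631, 6957, 3861 and 4768 CPM in neutrophils of the same libraries, and the part of free neutrophil RNA in the members' value was not tested. Hmox1 had -0.90 and -0.73, lower in the recipient library of each treatment.

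Few genes were higher in recipient members. S1pr5, which guides the exit of cells along sphingosine-1-phosphate, was at 44.6, 51.9, 74.9 and 83.1 CPM, with log2 ratios of 0.75 (0.42 to 1.07) and 0.68 (0.43 to 0.92). Pglyrp1, a peptidoglycan-binding protein, was at 124, 164, 199 and 273 CPM with 0.68 and 0.74, and Fcgrt, the neonatal Fc receptor, at 39.8, 37.6, 54.6 and 61.1 CPM with 0.46 and 0.70, or 0.82 and 0.86 without the other types. For S1pr5, Pglyrp1 and Fcgrt both recipient libraries lay above both donor libraries. G0s2, an inhibitor of lipolysis that neutrophils express, was at 39.1, 52.8, 71.4 and 107 CPM with 0.87 and 1.02 and stood at 1291, 2095, 1515 and 2851 CPM in neutrophils. S100a8, which the rule limits, was at 30.1, 43.1, 79.8 and 67.3 CPM in the same members. Slpi, a protease inhibitor of neutrophils, was at 90.9, 71.1, 159 and 138 CPM with 0.81 and 0.96, but 20.1% of its recipient UMIs were in 1 cell. The direction of Slpi turned in 3 settings. With vehicle it was -0.69 at a marker minimum of 5 and -3.02 in members with no Ly6c2 UMI. With RvD1 it was -0.65 in members with no Retnlg, Cxcr2 or Csf3r UMI. In the neutrophil list 4 of 10 genes were higher (S100a8, S100a9, G0s2 and Slpi) and 3 lower (Il1r2, Clec4d and Hdc), against 3.85% and 1.45% of all genes. Without the other cell types 4 were higher and Hdc alone was lower, against 0.472% and 1.05%. The rule limits S100a8 and S100a9, so their place in this count describes the chosen cells and is not a finding. The share of neutrophils was also higher in the recipient library of each treatment (54.4% against 23.1% and 38.4% against 35.8%), and its part in the G0s2, Slpi and S100a8 values was not tested. The list for nonclassical monocytes had medians of 0.14 and 0.32, and Pglyrp1 alone of its 24 genes passed.

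Immediate early and heat shock genes passed as higher in recipient members only with the endothelial cells. Over all members 4 of 22 immediate early genes were higher in recipient cells (Fos, Fosb, Jun and Egr1), against 3.85% of all genes. So were 4 of 20 heat shock genes and 4 of 11 GTPase genes with enough UMIs. Without the endothelial and alveolar macrophage cells, 0 of 21 immediate early genes and 0 of 18 heat shock genes passed as higher. Too few GTPase genes then reached the UMI minimum for a count. In the TNF and NF-kB list 4 of 31 genes were lower over all members and 5 of 30 in that subset, against 1.45% and 1.05% of all genes. Serpinb2, an inhibitor of plasminogen activators, was at 62.6, 44.4, 24.5 and 25.7 CPM with ratios of -1.35 and -0.79, and -1.21 and -0.60 in the subset. Among the 66 respiratory chain genes, 31 lysosomal genes and 17 Fc receptor and phagocytosis genes, 0 passed in either direction.

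The genes that the results turn on lie, on GRCm38 in GENCODE release M21, as follows. Ace is on chromosome 11 at 105967945 to 105989964 (plus strand) and Cd300e on chromosome 11 at 115051917 to 115062177 (minus strand). Adgre4 is on chromosome 17 at 55749984 to 55853662 (plus strand), and Apoc2 on chromosome 7 at 19671579 to 19677941 (minus strand). Pparg is on chromosome 6 at 115360951 to 115490399, Hmox1 on chromosome 8 at 75093621 to 75100589 and Gbp2 on chromosome 3 at 142620602 to 142638008, all on the plus strand. The GENCODE start of Gbp2 falls inside the promoter stretch printed above, which was placed by the RefSeq start, and lies before the match in capitals. Hist1h1c and Hist1h1e lie in the histone cluster of chromosome 13, at 23738808 to 23740367 and at 23620629 to 23622558, and all of these are protein-coding genes.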

How the data were processed

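The authors deposited unnormalised UMI counts of 32285 genes in each cell, made with Cell Ranger 6.1.1 (vehicle) or 7.0.1 (RvD1) per the file headers. The submitters' processing notes name mm10 and Seurat 4.0.0; the sources used here do not give how intron reads were counted. The quality limits left 5658, 5092, 5918 and 7623 cells and removed 470. The members and gene lists were chosen with earlier results of these data known.

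Summed UMIs of a class in 1 library were divided by the class total (CPM). Ratios used no pseudocount, with exact binomial 95% intervals. Genes had at least 100 UMIs per contrast and were counted past 1.5-fold between libraries, or 2-fold against classical monocytes. Scrublet in scanpy 1.11.5 was given an expected doublet rate that rises with the number of cells, and the cells it marked stayed in the main values. The interval and counting code was tested on simulated data. With single libraries no p-value was computed and no replicate could be left out.

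Genes named were the rule's genes and markers, the 10 highest and 10 lowest per comparison by the smallest ratio over its contrasts (genes with over 20% of UMIs in 1 cell left out), and up to 4 members per list. Cd74, Csf1r, Cx3cr1, Dnaja1, Fcgr4, Gngt2, Irgm1, Klf2, Ly6c2, Nr4a1, Pou2f2, Spn, Vcan, Cxcr2 and Retnlg, and any other gene outside this rule, were singled out after their values were seen. Alternatives changed the marker minimum, the S100 limit, the mitochondrial and depth limits, doublets, scaling, cell weighting and the gene minimum. Some genes that met this rule are not reported here.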

Additional observations from a re-analysis of the deposited data

Results flagged for a closer look

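Among the genes chosen for description, 4 were at least 1.5-fold different between RvD1 and vehicle in opposite directions in donor and recipient members, and 2 between recipient and donor in opposite directions under the 2 treatments, each with counting intervals away from 0; with 1 library per group, none of these differences was tested. Cxcl3, a neutrophil chemokine, had log2 ratios of RvD1 over vehicle of 1.02 in donor and -1.502 in recipient members, and 37.5% of its recipient UMIs were in 1 cell. The classical monocyte genes F13a1 (0.74 and -0.93) and Fn1 (0.68 and -1.38) were higher with RvD1 in donor members and lower in recipient members. Lpl, lipoprotein lipase, had -3.06 in donor and 1.91 in recipient members, with 20.5% of its donor UMIs in 1 cell. Its recipient over donor ratio was -3.05 with vehicle and 1.92 with RvD1. Ccl5 had a recipient over donor ratio of 0.79 with vehicle and -2.14 with RvD1, and 78.3% of its UMIs over both recipient libraries were in 1 cell.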

How the results depend on the processing

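Of the settings tried, the one without endothelial or alveolar macrophage cells was added after seeing the data. The share of members (in the order of the report) was 3.69%, 3.42%, 1.23% and 2.65% in cells with no Retnlg, Cxcr2 or Csf3r UMI and 5.74%, 4.58%, 1.77% and 4.07% in those with no Ly6c2 UMI, and the order of the libraries held in both. A marker minimum of 2 gave 10.0% in vehicle donor, 7.38% in RvD1 donor and 5.71% in RvD1 recipient; a minimum of 5 gave 7.23%, 5.13% and 4.34%. RvD1 recipient had 4.45% without the other cell types.

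Genes higher and lower with RvD1 numbered 187 and 198 with cells thinned to 2000 UMIs. Of the 76 and 96 genes of the main counts, only 46 and 59 were among these. At a minimum of 200 UMIs per gene they numbered 40 and 53, and 151 were higher at a minimum of 50. Genes higher in recipient members numbered 168 in cells with no Retnlg, Cxcr2 or Csf3r UMI and 105 at a 5% mitochondrial limit. They numbered 461 and 149 at minimums of 50 and 200 UMIs, and 30 without the other cell types. Genes lower in recipient members numbered 187 after thinning, 52 of them shared with the main count, and 64 at the minimum of 200. Against classical monocytes 345 and 114 were higher at minimums of 50 and 200, and 113 were lower in cells with no Ly6c2 UMI. The causes were not tested, beyond the number of genes that a minimum leaves.

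Log2 ratios that changed sign were as follows. Without the other cell types, Cd93 had -1.13 (vehicle) and -1.66 (RvD1) for recipient over donor and Lpl 0.36 (vehicle), and in recipient members Hspa1a had 0.15, Icam1 -0.84 and Lpl -0.62 for RvD1 over vehicle. With no Ly6c2 UMI, Cxcl3 had 0.76 and F13a1 2.94 in recipient members and Fn1 -0.61 and Ifi205 0.060 in donor members for RvD1 over vehicle, and Slpi had -3.02 for recipient over donor with vehicle. With no Retnlg, Cxcr2 or Csf3r UMI, Ccl4 had 0.21 and Slpi -0.65 for recipient over donor with RvD1. Recipient over donor with vehicle was -3.48 for Ccl5 and -0.69 for Slpi at a marker minimum of 5, -0.070 for Ccl5 after thinning and -0.17 for Cd93 at the 5% mitochondrial limit. Of 3840 values for single genes, 3186 moved by less than counting error and 637 by more without a change of sign. No paired analysis was possible because each group had 1 library. Depth limits genes with few UMIs, above all in the 132 vehicle recipient members.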
